A study of Mus musculus with 6 samples.

Results

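The 10 genes described here mark Kupffer cells, the macrophages that live in the sinusoids of the liver. They were taken by name from the table of gene counts: Adgre1, Clec4f, Vsig4, Timd4, Cd5l, Marco, Lyz2, C1qa, C1qb and C1qc. All 10 were among the 55367 gene names, and all 10 passed the filter on low counts that left 18703 genes to test. Kupffer cells settle in the liver before birth, renew themselves there and take up microbes, dying cells, old erythrocytes and lipoproteins from portal blood. Clec4f, Vsig4 and Timd4 are surface receptors that set resident Kupffer cells apart from macrophages newly arrived from blood. Adgre1, Lyz2 and the 3 C1q genes are made by many macrophages.

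Whole liver RNA was sequenced from C57BL/6J mice carrying the Lmln-/- genotype (Lmln-KO, called knockouts, 3 libraries) and from wild-type mice (WT, 3 libraries). Lmln encodes invadolysin, a metalloprotease. The mice were 46 weeks old in both groups, except that Lmln-KO replicate 3 came from a mouse of 39 weeks. No treatment, sex or way of making the Lmln allele is given in the labels. The libraries held between 17388360 and 22494696 counts, and all 3 Lmln-KO libraries were deeper than all 3 WT libraries. Lmln was read 4, 12 and 2 times in the 3 knockout libraries, against 79, 80 and 39 times in WT. Transcripts of the sex chromosomes parted the libraries in another way than genotype. Lmln-KO replicates 1 and 2 and WT replicate 1 carried Y-linked transcripts, and Lmln-KO replicate 3 and WT replicates 2 and 3 carried Xist. For some genes and lists, differences are therefore also given within each of these sets, in which 1 genotype is always a single library.

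Every marker was read in every library, with at least 68 counts (Marco in WT replicate 3) and at most 1950 (Clec4f in WT replicate 2). In whole tissue, fewer Kupffer cells and less RNA per Kupffer cell cannot be told apart. Levels are given as CPM, counts scaled to library size with TMM factors, and as CPM per kilobase of exon where genes are compared with each other. A fold change is Lmln-KO against WT on the log2 scale.

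The comparison of genotypes asks whether the marker RNAs of resident liver macrophages differ when Lmln is disrupted. Adgre1 and Lyz2 were lower in all 3 Lmln-KO libraries than in any WT library, by about the same factor. The Kupffer cell receptors Clec4f, Vsig4 and Timd4, the secreted protein gene Cd5l, Marco and the 3 C1q genes overlapped between genotypes. None of the 10 passed an adjusted p of 0.05 in edgeR, where 0.0% of all 18703 tested genes passed. Lmln itself did not pass there either (edgeR adjusted p 0.933). With unadjusted p under 0.05, 2 of 10 were lower and 0 higher, against 3.14% and 1.52% of all tested genes (4.66% in either direction). Groups did not overlap, with Lmln-KO lower, for 2 of 10, and with Lmln-KO higher for 0 of 10, against 5.73% and 4.61% of all tested genes (10.3% in either direction). DESeq2 and limma-voom also called 0 of the 10 (0.139% and 0.0% of the genes with an adjusted p were called), and each gave an unadjusted p under 0.05, lower, for 2 of them, against 2.74% and 2.96% of all genes. With a term for the sex-chromosome sets, edgeR and DESeq2 again called 0 of 10, against 0.00535% and 0.18% of genes. The fold change was negative for 10 of 10, against 50.6% of all tested genes, but for 5 of 10 once WT replicate 2 was left out. The edgeR adjusted p of the other 8 ran from 0.933 to 0.979. The median over the 10 genes was -0.14, or 0.012 once WT replicate 2 was left out, and over all tested genes it was -0.0038.

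**Figure D1:**
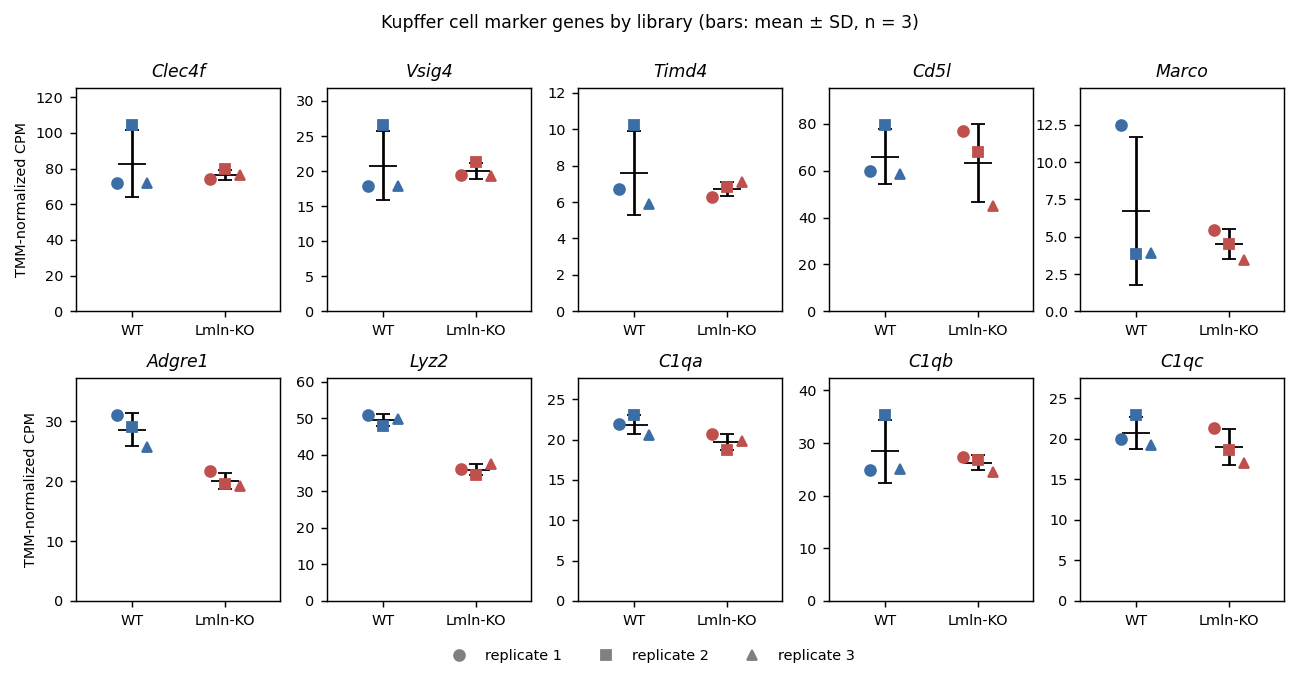
TMM-normalized CPM (vertical axes, from 0) of the 10 marker genes in the 3 WT and 3 Lmln-KO libraries. Points are single libraries, with shapes for replicate numbers, and bars give the mean and SD. Adgre1 and Lyz2 are the 2 genes whose groups do not overlap, and WT replicate 2 is the highest library for 7 of the 10.

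Adgre1 (chromosome 17, 57358691 to 57483527, GRCm38, plus strand) encodes F4/80, the adhesion-type receptor used to stain mouse macrophages. It measured 21.6, 19.5 and 19.1 CPM in Lmln-KO replicates 1, 2 and 3 and 31.1, 29.0 and 25.7 CPM in WT replicates 1, 2 and 3. Every Lmln-KO library lay below every WT library. Mean levels were 20.1 ± 1.34 and 28.6 ± 2.72 CPM (SD, n = 3). The log2 fold change was -0.51 (SE 0.112, 95% interval -0.77 to -0.25), or a 0.703-fold level. The edgeR adjusted p was 0.933. By unadjusted p the gene held rank 20 of 18703. In the Y-linked set alone the difference was -0.59, in the Xist set -0.51.

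Lyz2 (chromosome 10, 117277331 to 117282321, minus strand) encodes lysozyme, a bacteriolytic enzyme of macrophages, monocytes and neutrophils. Its level was 36.1, 34.4 and 37.4 CPM in the Lmln-KO replicates and 51.0, 47.9 and 49.9 CPM in the WT replicates. The groups were again separate, and the spread within each was narrow. The log2 fold change was -0.46 (SE 0.0899, interval -0.67 to -0.26), a 0.726-fold level, with an edgeR adjusted p of 0.933 and rank 11 of 18703 by unadjusted p. In the Y-linked set alone the difference was -0.53, in the Xist set -0.38. DESeq2 gave adjusted p of 0.13 for Lyz2 and 0.335 for Adgre1, so neither passed there. Lyz1, the close copy of Lyz2 with which reads could be shared, measured 0.641 ± 0.152 CPM in the knockouts and 0.842 ± 0.306 CPM in WT (SD, n = 3).

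In every one of the 6 fits that left out a library, Adgre1 and Lyz2 were the 2 markers with an unadjusted p under 0.05, both lower. Their log2 fold changes ran from -0.58 to -0.44 for Adgre1 and from -0.49 to -0.43 for Lyz2. As the groups of both genes were apart over all 6 libraries, a lower level in each such fit was given in advance. The fits share their libraries, so they are not separate results. The share of all tested genes with such a p in these fits is not given here. Other cells that contain lysozyme are monocytes and neutrophils. The 7 monocyte markers, of which 4 could be tested, summed to 7.37 to 9.93 CPM in the knockouts and 7.48 to 13.2 CPM in WT, with Chil3 at 0 counts in at least 1 library. The 10 neutrophil markers, of which 2 could be tested, summed to 2.31 to 6.29 CPM in the knockouts and 5.40 to 6.06 CPM in WT. Ly6g, Retnlg, Cxcr2, Mpo, Ngp and Camp of that list were at 0 counts in at least 1 library. Csf3r and S100a9, the 2 tested, had log2 fold changes of -0.37 and -0.087. Of the monocyte markers, Ccr2, Plac8 and Cx3cr1 had -0.39, -0.30 and 0.0019. The part of these cells in the Lyz2 difference was not tested.

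**Figure D2:**
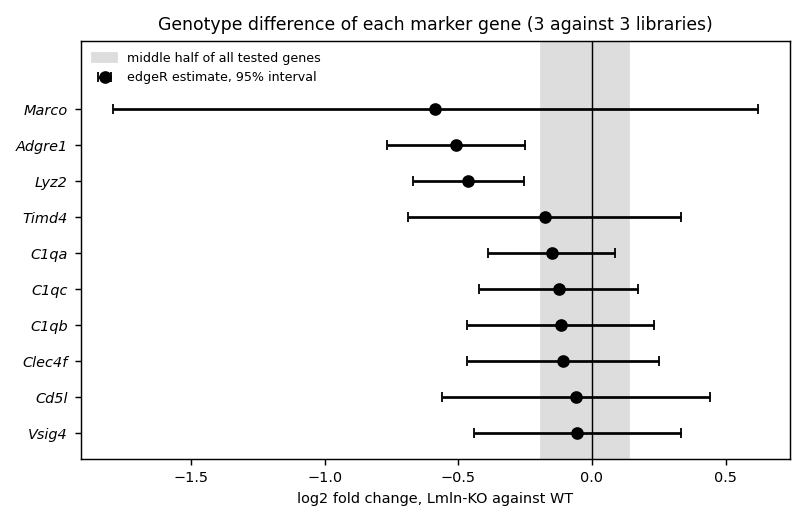
Log2 fold change of Lmln-KO against WT (horizontal axis) for the 10 marker genes, from edgeR, with 95% intervals. The grey band runs from the first to the third quartile of all tested genes. The intervals of Adgre1 and Lyz2 lie below 0, and the other 8 include it.

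Clec4f, Vsig4 and Timd4, the most Kupffer-restricted of the genes, overlapped between genotypes. Clec4f (chromosome 6, 83644542 to 83656187, minus strand), a C-type lectin that in the mouse is made by Kupffer cells, measured 74.0, 79.6 and 76.5 CPM in the Lmln-KO replicates and 72.0, 104 and 71.9 CPM in the WT replicates. WT replicate 2 was the high library, and the other 5 lay within a narrow range. The log2 fold change was -0.11 (SE 0.156, interval -0.47 to 0.25), which turned to 0.091 without WT replicate 2. The interval reaches down to 0.722-fold, just past the 0.726-fold level of Lyz2.

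Vsig4 (chromosome X, 96247203 to 96293438, minus strand), the complement receptor CRIg that binds C3 fragments, measured 19.5, 21.3 and 19.3 CPM in the Lmln-KO replicates and 17.9, 26.5 and 17.9 CPM in the WT replicates. Timd4 (chromosome 11, 46810800 to 46844332, plus strand), a phosphatidylserine receptor for dying cells, measured 6.29, 6.80 and 7.08 CPM against 6.71, 10.2 and 5.87 CPM. In both genes WT replicate 2 was the highest library and WT replicate 3 the lowest. The log2 fold changes were -0.055 for Vsig4 (SE 0.168, interval -0.44 to 0.33) and -0.18 for Timd4 (SE 0.222, interval -0.69 to 0.33). Without WT replicate 2 they turned to 0.16 and 0.095. In the library with the fewest Timd4 counts, counting alone gives an SD of 9.90% if every count is independent. Reads of a pair were counted singly, so the true counting SD may be larger.

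Cd5l and Marco each had 1 library that lay apart from the rest, and it was not the library in which the receptors were high. Cd5l (chromosome 3, 87357881 to 87371073, plus strand) encodes AIM, a protein that macrophages secrete into blood. It measured 76.9, 68.1 and 44.9 CPM in Lmln-KO replicates 1, 2 and 3 and 59.9, 79.4 and 58.7 CPM in WT. The lowest library was Lmln-KO replicate 3, the one from the 39-week-old mouse and the single Lmln-KO library with Xist. The log2 fold change was -0.060 (SE 0.214), and it was 0.14 when Lmln-KO replicate 3 was left out and 0.093 when WT replicate 2 was. In the Y-linked set alone it was 0.27, in the Xist set -0.60.

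Marco (chromosome 1, 120474538 to 120505024, minus strand), a scavenger receptor with a collagen-like stalk that binds bacteria, was the most variable marker. It measured 5.48, 4.53 and 3.45 CPM in the Lmln-KO replicates and 12.5, 3.85 and 3.92 CPM in the WT replicates, so WT replicate 1 was 3.61-fold above the lowest library. Its coefficient of variation over the 6 libraries was 61.1%, against 7.46% to 21.7% for the other 9 genes. The log2 fold change was -0.59 (SE 0.502, interval -1.79 to 0.62), and 0.21 without WT replicate 1. With a term for the sex-chromosome sets it was -0.79 (SE 0.257, edgeR adjusted p 0.987). In that fit WT replicate 1 is the only WT library with Y-linked transcripts. The number of markers with an unadjusted p under 0.05 was then 3 of 10, all lower, against 2.65% of all tested genes lower. DESeq2 with the term also gave 3 of 10, against 1.87%.

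The dependence of the genotype difference on the sex-chromosome set was tested as an interaction in edgeR. None of the 10 genes passed (0.0% of all 18703 tested genes did), and 2 of 10, Cd5l and Marco, had an unadjusted p under 0.05, against 2.43% of all tested genes. The interaction term was -0.90 for Cd5l and 1.15 for Marco, each with an adjusted p of 0.99995. Lmln-KO replicate 3 and WT replicate 1 are each the single library of their genotype in a set. They are also the libraries that lay apart for Cd5l and Marco, so these 2 terms restate single libraries and are not read as dependence on the set. In the Y-linked set 5 of the 10 differences were negative, with a median of -0.017. In the Xist set 10 of 10 were negative, with a median of -0.23. That set compares Lmln-KO replicate 3 alone with WT replicates 2 and 3, and WT replicate 2 was the highest library for 7 of the 10. The genes share these libraries, so the 10 signs are not separate results. The share of all tested genes negative within each set was not computed.

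**Figure D3:**
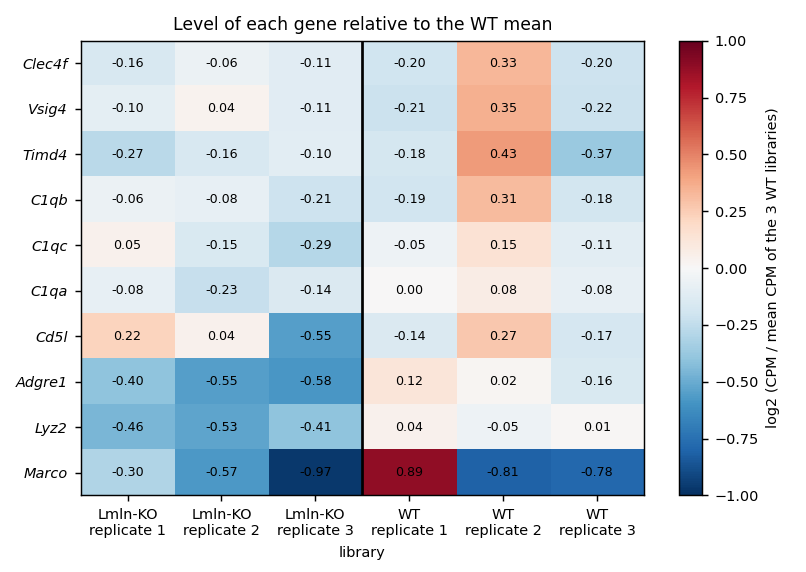
Level of each marker gene (rows) in each library (columns) as log2 of its CPM over the mean CPM of the 3 WT libraries, in colour and in numbers. All 3 Lmln-KO libraries are below 0 for 7 of the 10 genes (Adgre1, Lyz2, Clec4f, Timd4, Marco, C1qa and C1qb), and for Adgre1 and Lyz2 they are also below every WT library. WT replicate 2 is above 0 for 8 of 10 genes, and Marco is high in WT replicate 1.

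The C1q genes encode the A, B and C chains of complement C1q, which opens the classical pathway and tags dying cells, and which macrophages rather than hepatocytes make. They lie in a row on the minus strand of chromosome 4, C1qb at 136880129 to 136886187, C1qc at 136889804 to 136893065 and C1qa at 136895917 to 136898803, in 18675 bases. C1qa measured 20.7, 18.7 and 19.8 CPM in the knockouts and 21.9, 23.1 and 20.6 CPM in WT. C1qb measured 27.3, 26.8 and 24.6 CPM in the knockouts and 24.9, 35.4 and 25.1 CPM in WT. C1qc measured 21.4, 18.7 and 17.0 CPM in the knockouts and 19.95, 22.9 and 19.2 CPM in WT. All 3 overlapped between genotypes, and WT replicate 2 was the highest library for each.

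Log2 fold changes were -0.15 for C1qa (SE 0.103, interval -0.39 to 0.087), -0.12 for C1qb (SE 0.152, interval -0.47 to 0.23) and -0.12 for C1qc (SE 0.129, interval -0.42 to 0.17). That of C1qb turned to 0.069 without WT replicate 2, while those of C1qa and C1qc stayed negative under all 16 alternatives. The measured proportions of the chains differed between libraries, and whether by more than counting error was not tested. C1qa stood at 65.2 counts per 100 C1qb counts in WT replicate 2, the lowest ratio, and 88.1 in WT replicate 1, the highest. Of the counts of the 3 genes, C1qa held 28.3% to 32.8% in the 6 libraries, C1qb 37.3% to 43.5% and C1qc 27.7% to 30.8%. C1qa was the steadiest of the 10 markers, with a coefficient of variation of 7.46%.

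Per kilobase of exon, Lyz2, Clec4f and Cd5l stood highest, at 32.5 ± 5.76, 32.3 ± 5.02 and 31.8 ± 6.31 CPM per kilobase (SD over the 6 libraries), and their ranges overlapped. C1qb followed at 25.1 ± 3.75, within the range of Cd5l. C1qa came next at 19.98 ± 1.49, and its highest library lay below the lowest of C1qb. Vsig4 (13.8 ± 2.19) and C1qc (10.3 ± 1.09) came after it, each below the range of the gene before it. The ranges of C1qc and Adgre1 (7.52 ± 1.56) overlapped. Adgre1 in turn lay above the range of Timd4, the next in order. The ranges overlapped for Timd4 (3.30 ± 0.716) and Marco (2.92 ± 1.78), which were the lowest. The level of the F4/80 gene Adgre1 was thus under that of Clec4f in every library.

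The markers fell into patterns across the libraries, which are described here without a test because the genes share each library. Likeness was measured as the mean absolute difference of log2 CPM, each gene centred on its own mean over the 6 libraries. Of 45 pairs of markers, the closest was Clec4f with Vsig4 (0.036), followed by Clec4f with C1qb (0.046), Vsig4 with C1qb (0.058) and Clec4f with Timd4 (0.082). Adgre1 and Lyz2 were the sixth closest pair (0.095). Timd4 with Marco was the farthest (0.547).

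Ratios of counts within a library carry no scaling. Vsig4 stood at 26.3, 26.8 and 25.2 counts per 100 Clec4f counts in the Lmln-KO replicates and 24.9, 25.4 and 24.9 in the WT replicates. The ratio in WT replicate 2, where both genes were high, lay within the range of the other libraries. C1qb likewise kept to 32.2 to 36.9 counts per 100 Clec4f counts. Timd4 kept to 8.17 to 9.79. Adgre1 did not keep a fixed ratio, at 29.2, 24.5 and 25.03 counts per 100 Clec4f counts in Lmln-KO and 43.1, 27.8 and 35.7 in WT. Relative to Clec4f, Lyz2 stood at 48.8, 43.2 and 48.9 in Lmln-KO and 70.7, 45.9 and 69.4 in WT. For both genes the WT replicate 2 value lay in the Lmln-KO range, so the groups overlapped on this measure. Lyz2 per 100 Adgre1 counts was 180 ± 14.5 in Lmln-KO and 174 ± 17.1 in WT (SD, n = 3), a difference smaller than the spread of either group.

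**Figure D4:**
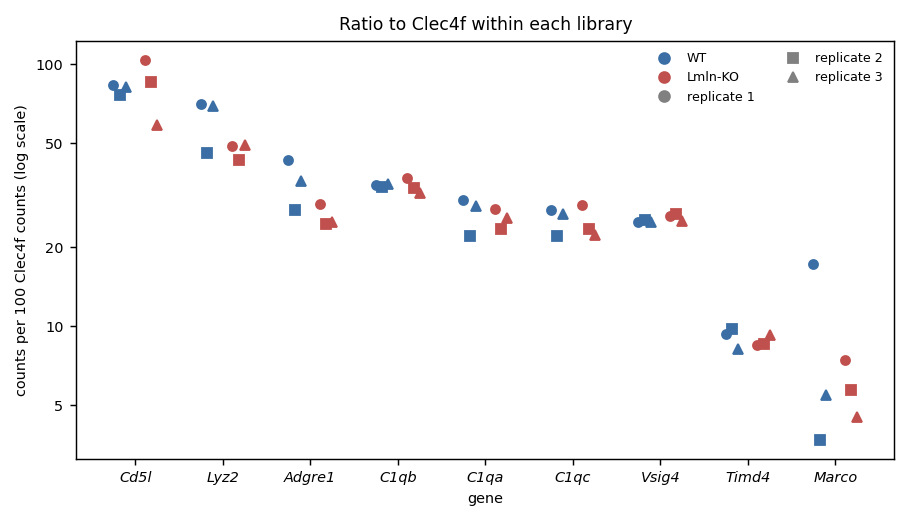
Counts of 9 marker genes per 100 Clec4f counts in the same library (vertical axis, log scale), with WT libraries in blue and Lmln-KO libraries in red. Vsig4, C1qb and Timd4 stay close together in all 6 libraries, while Adgre1 and Lyz2 are highest in WT replicates 1 and 3, and Marco in WT replicate 1.

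The stretch before the gene start is shown for 3 genes of the first pattern, Vsig4, C1qb and Timd4, and for Marco, which departed from it. RefSeq's promoter table (GRCm38.p6) held 8 of the 10 genes, all but Adgre1 and C1qa. Each line gives the 250 bases before the RefSeq gene start, 5′ to 3′ along the gene, with capitals marking the PU box GAGGAA on either strand. The PU box is the core bound by PU.1, the transcription factor on which macrophages depend.
Vsig4, chrX:96293439-96293688, minus strand: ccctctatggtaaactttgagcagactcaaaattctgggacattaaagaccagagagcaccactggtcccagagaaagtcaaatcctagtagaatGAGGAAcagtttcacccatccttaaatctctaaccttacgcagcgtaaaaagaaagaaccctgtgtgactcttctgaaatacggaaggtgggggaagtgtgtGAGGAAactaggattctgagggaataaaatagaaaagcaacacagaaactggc
C1qb, chr4:136886201-136886450, minus strand: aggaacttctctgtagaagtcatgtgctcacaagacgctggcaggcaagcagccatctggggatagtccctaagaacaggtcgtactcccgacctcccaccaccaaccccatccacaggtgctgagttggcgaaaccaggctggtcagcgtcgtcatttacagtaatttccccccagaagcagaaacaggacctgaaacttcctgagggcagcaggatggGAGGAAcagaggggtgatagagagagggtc
Timd4, chr11:46810549-46810798, plus strand: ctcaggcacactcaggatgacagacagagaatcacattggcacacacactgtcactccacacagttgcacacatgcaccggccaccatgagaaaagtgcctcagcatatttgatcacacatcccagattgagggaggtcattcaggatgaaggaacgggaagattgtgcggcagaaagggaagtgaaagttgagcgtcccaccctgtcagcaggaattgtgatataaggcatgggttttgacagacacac
Marco, chr1:120505025-120505274, minus strand: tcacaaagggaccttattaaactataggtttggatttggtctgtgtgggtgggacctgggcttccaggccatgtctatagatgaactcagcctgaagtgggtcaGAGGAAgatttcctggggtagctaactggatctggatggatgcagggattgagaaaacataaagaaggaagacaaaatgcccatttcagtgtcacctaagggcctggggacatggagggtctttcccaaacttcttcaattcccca

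Vsig4 held 2 PU boxes, the nearer beginning 53 bases before the start. C1qb held 1, at 30 bases. Marco held 1, at 146 bases, and Timd4 none. Clec4f, which is also of the first pattern but is not shown, held none either. The motif stood in 5 of these 8 genes and in 23.3% of 32851 promoter windows of the same length. The RBPJ motif TGGGAA, on either strand, stood in 3 of 8 and in 21.6%. The PU box and the RBPJ motif end in the same letters, GGAA. These matches describe the windows and were not tested against the expression values.

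Outside the 10, the genes with the pattern most like Adgre1 among 13945 genes were Dnal1 (0.056), Pim2 (0.059) and Armcx5 (0.060), by the same mean absolute difference over 6 libraries. For Clec4f they were Star (0.047), Gm12166 (0.051) and Phtf1 (0.053). For the mean of the C1q genes they were Shprh (0.020), Fundc1 (0.027) and Psmd10 (0.034). None of these 9 is a listed macrophage marker.

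Transcription factors that build Kupffer cell identity were all detected. Of 10 tested, 6 were negative and 4 positive, with a median log2 fold change of -0.11, and none passed the adjusted test. The median ran from -0.24 (Lmln-KO replicate 3 left out) to -0.014 (WT replicate 3 left out) and was 0.0055 with the sex-chromosome term. Nr1h3, which encodes the sterol receptor LXR alpha that maintains Kupffer cells, had a log2 fold change of 0.0099 (SE 0.0927). Nr1h3, Cd163, Csf1r and Lyz1 were added here after their values were seen. Irf8 gave a fold change of -0.58 (SE 0.285), and Spi1, which encodes PU.1, one of -0.43 (SE 0.326). Id3, another of these identity factors, encodes a helix-loop-helix protein and gave a fold change of 0.81 (SE 0.484).

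Other Kupffer cell surface and iron genes had a median of -0.086, with 0 of 10 at an unadjusted p under 0.05. Cd163, the receptor for haemoglobin with haptoglobin, measured 24.6, 24.7 and 24.0 CPM in the knockouts and 18.6, 29.6 and 14.5 CPM in WT. It was highest in WT replicate 2, as Clec4f was. For Hmox1, which breaks down heme, the fold change was -0.31 (SE 0.162), and for Cfp, the complement factor properdin, -0.30 (SE 0.183). Il18bp and Slc11a1 had log2 fold changes of -0.25 and -0.33.

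Genes shared by macrophages and other myeloid cells, as Adgre1 and Lyz2 are, were listed separately. Their median was -0.34 over 14 tested genes, 12 of them negative. In the Y-linked set alone this median was -0.074, in the Xist set -0.57. The differences in these sets were also negative for Adgre1 (-0.59 and -0.51) and Lyz2 (-0.53 and -0.38). An unadjusted p under 0.05 was reached by 3 of 14, all lower, and 4 of 14 did not overlap, where all tested genes gave 3.14% and 5.73%. None passed the adjusted test. Cd14, a coreceptor for endotoxin, measured 2.19 ± 0.192 against 4.02 ± 0.666 CPM (SD, n = 3), with a log2 fold change of -0.88 (SE 0.221). Ctss, a lysosomal protease, had one of -0.40 (SE 0.141), and Ptprc, the common leukocyte antigen CD45, one of -0.77 (SE 0.244). Laptm5, a lysosomal membrane protein of blood cells, had one of -0.34. Csf1r, the receptor for the growth factor on which Kupffer cells depend, measured 59.3 ± 5.72 against 66.2 ± 12.05 CPM, and its log2 fold change of -0.16 (SE 0.148) did not pass.

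The scavenger and clearance receptors had a median of -0.11 over 9 tested genes, with 0 at an unadjusted p under 0.05, and it turned to 0.069 without WT replicate 2. Scarb1, Axl, Stab1 and Scarf1 had log2 fold changes of -0.24, -0.13, -0.11 and -0.11. The growth and niche signals had a median of -0.35 over 7 tested genes, all 7 negative. This median was -0.62 without Lmln-KO replicate 3, -0.54 without WT replicate 1, -0.22 without Lmln-KO replicate 2, -0.15 without WT replicate 3 and -0.16 with the sex-chromosome term. Dll4, a Notch ligand of sinusoidal endothelium, was the one of them with an unadjusted p under 0.05, at 6.50 ± 0.948 against 10.9 ± 3.22 CPM (SD, n = 3). Gdf2, Ccl2 and Csf1 had log2 fold changes of -0.35, -0.92 and -0.24.

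The proteases and complement proteins that act with C1q are made largely by hepatocytes. The classical pathway list had a median of 0.080 over 9 tested genes, 7 of them positive and 0 at an unadjusted p under 0.05. Its sign was not stable, since leaving out WT replicate 2 gave -0.0023, leaving out Lmln-KO replicate 3 gave 0.23, leaving out WT replicate 1 gave 0.21, and the value was -0.031 with the sex-chromosome term. C4bp, C1rb, C4b and C2 had log2 fold changes of 0.34, 0.30, 0.17 and 0.13. The list of C1q receptors had a median of 0.090 over 5 genes, or -0.013 when Lmln-KO replicate 1 was left out, and Calr, Cd93, C1qbp and Lrp1 of that list had 0.37, -0.17, 0.12 and 0.090.

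**Figure D5:**
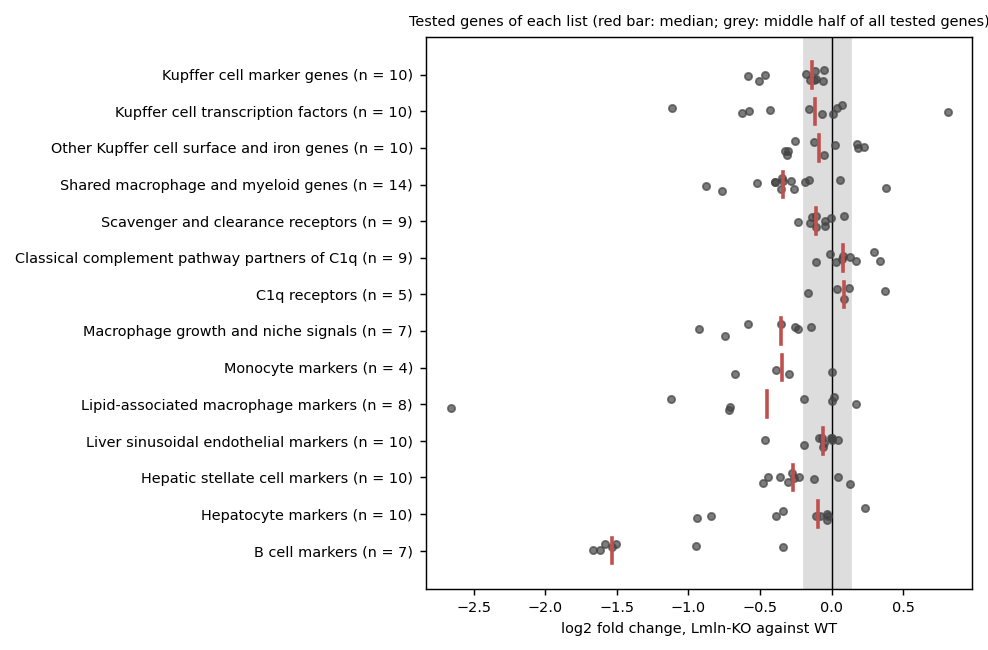
Log2 fold change of Lmln-KO against WT (horizontal axis) for the tested genes of each list, with red bars at the median and a grey band from the first to the third quartile of all tested genes. The median of the 10 Kupffer cell markers (-0.14) lies inside the band, and those of shared macrophage genes (-0.34) and B cell markers (-1.53) are among those below it.

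Markers of other cells were summed in each library, as a measure of what else the tissue held. The 8 B cell markers summed to 6.99 to 8.07 CPM in the knockouts and 9.09 to 31.7 CPM in WT, low levels for 8 genes. WT replicate 1 held the lowest WT sum. All 7 of 7 tested genes were negative, 5 of them with an unadjusted p under 0.05, against 3.14% of all tested genes lower. The median of the B cell list was -0.25 in the Y-linked set and -1.66 in the Xist set. Ms4a1, Cd79b and Cd22 had log2 fold changes of -1.66, -1.62 and -1.53. These B cell sums did not overlap, and the median over the B cell list was -1.53, or -1.90 when WT replicate 1 was left out and -0.84 when WT replicate 3 was. The 8 markers of lipid-associated macrophages gave a median of -0.45, which ran from -0.93 without Lmln-KO replicate 1 to -0.14 without WT replicate 3 and was 0.00075 at a minimum count of 30. In that list 2 of 8, Gpnmb and Itgax, had an unadjusted p under 0.05, against 3.14% of all tested genes lower. Gpnmb was near the floor, at 0.096, 0.14 and 0.38 CPM in the Lmln-KO replicates and 0.59, 0.59 and 2.94 CPM in the WT replicates. WT replicate 3 thus stood apart for it. The log2 fold changes of Gpnmb and Itgax were -2.66 (SE 0.84) and -1.12. Trem2 and Lpl of that list had -0.72 and -0.71. The 10 T and NK cell markers, with Cd3d, Cd8a, Gzma and Ncr1 at 0 counts in at least 1 library, summed to 2.56 to 4.06 CPM in the knockouts and 3.86 to 8.35 CPM in WT. The 10 hepatocyte markers summed to 68320 to 83828 CPM in the knockouts and 84616 to 102165 CPM in WT, again without overlap. Most of that sum is Alb (53981 against 68189 CPM on average), the 1 gene of the list whose groups did not overlap, and the median log2 fold change of the list was -0.095. The 10 sinusoidal endothelial markers summed to 739 to 917 and 817 to 868 CPM, and the 10 stellate cell markers to 434 to 657 and 531 to 744 CPM. Mostly negative fold changes were not particular to the Kupffer cell markers. They were found in 9 of 10 hepatocyte, 8 of 10 stellate cell (median -0.27) and 7 of 10 endothelial markers. The part of these other cells in the differences of Adgre1 and Lyz2 was not tested.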

How the data were processed

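The deposited values are raw read counts, 1 row for each gene name. They come from featureCounts 2.0.1, per the file headers, run over exons of Ensembl release 102 (GRCm38), with no option for pairs, strand or multiple mapping. Reads of a pair were thus counted singly, and strands cannot be told apart, though no other gene name overlaps any of the 10 genes. Subread 2.0.2 and edgeR 3.36.0 also appear in the submitters' processing notes. No source used here says which aligner was used. Exon lengths come from the same table. Columns were matched to samples by the library names in the titles, which left 0 columns unmatched.

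edgeR 4.0.16 (R 4.3.3) tested genotype on all 6 libraries, with TMM factors, filterByExpr at its minimum count of 10 (genes holding 99.8% of counts), a robust quasi-likelihood fit and Benjamini-Hochberg adjustment at 0.05 over all genes tested. Each SE was the size of the fold change divided by the root of F. Log2 CPM used a prior count of 2. DESeq2 1.42.0, limma 3.58.1 (voom), other scalings and filters, the replicate number as a block, a term for the sex-chromosome set, and leaving out each library were the alternatives. The labels do not say that each library came from its own animal, so p-values measure the spread between these libraries. On counts simulated for 18244 genes of this comparison, 34% of the 100 genes with a 2-fold change were called. Of the 100 with a 4-fold change 90% were called, and 11 unchanged genes were called as well. The simulation drew each gene on its own and held no sex-chromosome sets, so these shares need not hold for the real libraries. There Lmln, at a 0.0758-fold level, had an adjusted p of 0.933 in edgeR and 2.3e-06 in DESeq2.

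The members, lists, sex-chromosome term and rule for named genes were chosen with earlier results of these data known. The rule took all 10 members, Lmln, up to 4 tested genes of each list with the smallest p, and the 3 genes most like Adgre1, Clec4f and the C1q mean. Same-numbered libraries were checked for shared deviations. Some genes that this rule selects are not reported here.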

Additional observations from a re-analysis of the deposited data

How the results depend on the processing

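None of the 10 genes was called under any of the 16 alternatives, and the median over the 10 genes moved by less than its SD between libraries of a group (0.161) in each, from -0.20 to 0.012. The count of genes called over all tested genes, 0 in the main comparison, was 24 with DESeq2, 3 without the filter on low counts, 1 with the sex-chromosome term and 31 with that term in DESeq2, and ran from 0 to 3 when single libraries were left out. The replicate number as a block gave 1 call over all genes and none among the 10. The numbers did not pair the libraries (correlations of same-numbered deviations 0.465, -0.311 and 0.405), and not every library correlated best with its own number. The fold change of 6 genes changed sign in fits without 1 library. Without WT replicate 2 it was 0.069 for C1qb, 0.093 for Cd5l, 0.091 for Clec4f, 0.095 for Timd4 and 0.16 for Vsig4. Without Lmln-KO replicate 3 it was 0.14 for Cd5l, and without WT replicate 1 it was 0.21 for Marco. Over the 6 fits without 1 library the values ran from -0.20 to 0.069 for C1qb, -0.22 to 0.14 for Cd5l, -0.20 to 0.091 for Clec4f, -0.87 to 0.21 for Marco, -0.33 to 0.095 for Timd4 and -0.15 to 0.16 for Vsig4. The loss of the library is the only change in these fits, and what set those libraries apart was not tested. Upper-quartile scaling moved the median of all genes by -0.026, the farthest of the 16 alternatives. The T and NK cell list gave no value at a minimum count of 30. Depth limited Marco most, with a counting SD of 12.1% in its lowest library if every count is independent.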
